A study of Caenorhabditis elegans with 2 samples.

Results

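UNC-62 occupancy was examined at the ceh genes of the nematode Caenorhabditis elegans, the C. elegans homeobox genes named by number, without the Hox gene ceh-13 and without ceh-20, ceh-40 and ceh-60, which encode cofactors of the TALE homeodomain class to which UNC-62 itself belongs. Members were all other protein-coding genes with a symbol starting in ceh- in the WBcel235 gene models, which gave 59 of the 63 ceh genes and of 19973 nuclear protein-coding genes. The measurement was chromatin immunoprecipitation followed by sequencing (ChIP-seq), which lists stretches of DNA recovered with an antibody against a protein, given here as unc-62. Both samples were whole animals of strain OP600, of mixed sex, which carry the unc-119 mutation ed3 and the transgene wgIs600 with a TY1, EGFP and FLAG tagged unc-62 and an unc-119 copy. They are 2 biological replicates of 1 group. The stage is given as dauer, the arrested larva, in one label and as D4 worms in another, and no second strain, stage, treatment or untagged sample was analysed here. In whole animals, strong occupancy in a few cells and weak occupancy in many cannot be told apart.

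Homeobox genes encode transcription factors that bind DNA through a homeodomain, and in C. elegans most ceh genes act in the identity of particular neurons, muscles, gland cells or skin cells. Their classes are named for the homeodomain and its companion domains: NK-like and engrailed-like genes of the ANTP class, paired-like, POU, LIM, sine oculis and CUT genes. UNC-62 is a Meis protein that works with Hox and Pbx proteins, and homeobox genes are regulated by other homeodomain proteins in many animals. In each of the lists examined, the ceh genes held a summit no more often than other protein-coding genes of like length.

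Region lists on build ce11 were searched for summits in each gene body or up to 5000 bp upstream of it, a stretch called the window here. The replicate lists held 30000 regions each, the list called on both replicates pooled held 2155 regions, of which 2136 were nuclear, and the reproducible list, which passed the authors' irreproducible discovery rate (IDR) step, held 95, of which 76 were nuclear. Replicate and pooled lists are labelled as peaks and background together. The signal of a region is the authors' own enrichment value with no stated scale, and rank 1 is the highest signal in a list. Sequencing depth is unknown from the files. With 1 group there is no contrast between samples, so shares are given beside those of other genes as a description, with exact 95% binomial intervals that cover counting error only.

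None of the 59 ceh genes had a reproducible summit in its window, and the exact interval for that share runs from 0 to 6.06%. Of 19914 other nuclear protein-coding genes 113 did, or 0.567%, and other genes of like span gave 0.615%, which is 0.363 genes for a group of this size. A count of 0 was therefore close to that background. In the pooled list 5 ceh genes had a summit, or 8.47% (interval 2.81 to 18.7), against 14.8% of the other genes. Since a long gene offers more sequence, the other genes were also weighted to the members' spans in 20 bins, which gave 15.8%, or 9.30 genes in place of 5. The ratio of both shares was 0.538, and the span-matched share lay within the interval of the members. The median member spanned 2818 bp and the median other gene 2026 bp.

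The 5 genes with a pooled summit were ceh-38, ceh-48, ceh-89, ceh-79 and ceh-37, each with 1 summit. Their pooled signals ran from 15.7 to 19.1, at ranks 712 to 1992 of the list. The lowest, median and highest nuclear pooled signals were 15.5, 17.6 and 82.4, so ceh-38 alone lay above the median. The highest was at unc-62, whose locus is also on the transgene. No nuclear reproducible region was below 31.2. The deposited q values at the 5 summits ran from 0.671 to 0.938, and no pooled region had a q value below 0.05.

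**Figure D1:**
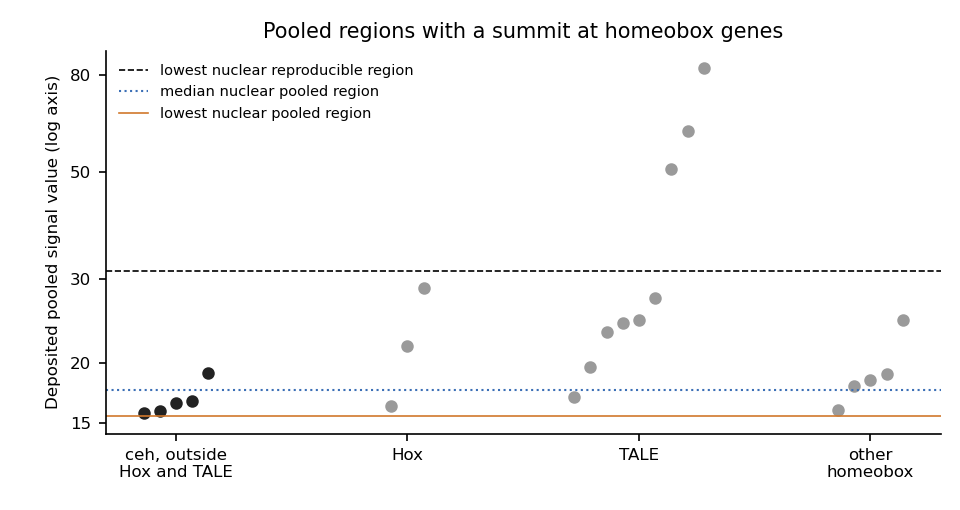
Deposited pooled signal value (log axis) of each pooled region with a summit in the window of a homeobox gene, 1 point per region and gene, grouped by class, with lines at the lowest nuclear reproducible, the median nuclear pooled and the lowest nuclear pooled signal. The 5 points of the ceh genes lie between 15.7 and 19.1, all below the reproducible regions, which start at 31.2.

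ceh-38 and ceh-48 encode ONECUT proteins of the CUT class, which carry a CUT domain beside the homeodomain and act broadly in the nervous system. The ceh-38 region (WBGene00000459, II 6951388 to 6951731, plus strand) had its summit 34 bp inside the gene, in 5′ UTR sequence. Its signal was 19.1 in the pool and 12.2 in replicate 1, at rank 498, with a q value of 0.0734. Replicate 2 had no summit within 200 bp, and its nearest lay 1511 bp away. The summit also lay 260 bp upstream of malt-1, the paracaspase gene that runs in the other direction. The ceh-48 region (WBGene00015934, IV 6814891 to 6815234, plus strand) had its pooled summit in an intron, 2955 bp from the 5′ end of the gene. Its signal was 16.7 in the pool and 12.1 in replicate 1, where the summit lay 50 bp away in a coding exon, at rank 538, with a q value of 0.0698, and the nearest replicate 2 summit was 1558 bp away. Both CUT gene summits were thus high in replicate 1 and unmatched in replicate 2. The protein-coding start nearest to the ceh-48 summit was that of C17H12.5, at 2591 bp, and the summit also lay 3640 bp upstream of C17H12.8.

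The other 3 pooled summits had a summit within 200 bp in both replicate lists, which hold background too. The replicate q values at these matches ran from 0.424 to 0.922. The ceh-89 region (WBGene00009231, X 14140885 to 14141228) had its summit 889 bp upstream of ceh-89 and 917 bp upstream of nkat-1, a kynurenine aminotransferase gene on the opposite strand. Its signals were 16.5 in the pool, 5.82 in replicate 1 (rank 12416) and 5.99 in replicate 2 (rank 12761). The ceh-79 region (WBGene00007749, V 13297776 to 13298119) had its summit 3885 bp upstream of ceh-79 and inside a coding exon of C26E1.1, whose start was 428 bp away and nearer than that of ceh-79. It also lay 1970 bp upstream of uig-1. Its signals were 15.9 in the pool, 7.6 in replicate 1 (rank 4975) and 7.01 in replicate 2 (rank 7731), and no other summit of a ceh gene that was matched between replicates ranked as high in both lists. The ceh-37 region (WBGene00000458, X 14209486 to 14209829) had its summit 1658 bp upstream of ceh-37, an Otx-like gene of the AWB olfactory neurons whose protein also binds telomeric DNA. Its signals were 15.7 in the pool, 4.41 at the nearest summit of replicate 1 (rank 23895) and 4.27 at the nearest summit of replicate 2 (rank 28003). Replicate 2 had a further and higher summit inside the same pooled region, 1491 bp upstream of ceh-37, with a signal of 7.75 at rank 5213. The window of no other protein-coding gene held the ceh-37 summit, unlike those of the other 4. Of the 5 pooled summits at ceh genes 3 had a match in both replicates, against 1631 of 2136 nuclear pooled summits, or 76.4%.

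The sequences at these summits are shown since they are the only stretches at ceh genes that reached the pooled list. They are from the plus strand of WBcel235, which is ce11, as held by RefSeq, with matches on either strand in capitals to the repeat GAGAGA, the Meis core TGACAG, the composite Pbx and Hox site TGATNNAT, the homeodomain core TAATTA and the letters GCGCGA. No sequence holds more than 1 match. The ceh-38 stretch is the 100 bases before the gene and its first base (chrII:6951426-6951526), within the region, and the others are centred on the summit: ceh-48 at chrIV:6814998-6815128, ceh-89 at chrX:14140957-14141157, ceh-79 at chrV:13297848-13298048 and ceh-37 at chrX:14209558-14209758.
ceh-38: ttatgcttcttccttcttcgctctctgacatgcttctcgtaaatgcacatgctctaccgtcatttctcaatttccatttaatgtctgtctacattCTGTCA
ceh-48: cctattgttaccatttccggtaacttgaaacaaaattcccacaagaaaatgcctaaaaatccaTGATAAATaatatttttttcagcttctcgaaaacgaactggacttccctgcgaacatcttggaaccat
ceh-89: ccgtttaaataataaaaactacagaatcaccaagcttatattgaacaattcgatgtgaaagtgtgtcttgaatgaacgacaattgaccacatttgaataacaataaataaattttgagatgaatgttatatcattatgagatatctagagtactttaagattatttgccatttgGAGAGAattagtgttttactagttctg
ceh-79: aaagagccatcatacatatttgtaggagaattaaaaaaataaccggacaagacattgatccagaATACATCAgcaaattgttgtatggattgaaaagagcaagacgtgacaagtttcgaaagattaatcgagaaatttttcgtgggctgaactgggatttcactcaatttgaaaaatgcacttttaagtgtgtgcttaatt
ceh-37: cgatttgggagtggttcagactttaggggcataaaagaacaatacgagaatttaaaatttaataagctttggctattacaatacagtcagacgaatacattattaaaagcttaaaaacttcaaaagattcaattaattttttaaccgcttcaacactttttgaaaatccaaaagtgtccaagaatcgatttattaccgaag

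TGACAG was found at 1 of the 5 summits within 100 bp, at ceh-38, where it spans the first base of the gene 39 bp before the summit. Among all 2136 nuclear pooled summits 8.66% held it. TGATNNAT was at 2, with its first base 2 bp before the summit at ceh-48 and 36 bp before it at ceh-79, against 16.4% of all. GAGAGA was at 1, at ceh-89, where it starts 74 bp after the summit, against 22.3% of all and 55.3% of the 76 nuclear reproducible summits. TAATTA, a core bound by many homeodomain proteins, and the letters GCGCGA were at none of the 5, against 7.16% and 4.26% of all. None of these motifs contains another. A match is a description of letters and not a bound site, and 5 summits are too few for a share to be precise.

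In the full replicate lists nearly every ceh gene had some summit, as did nearly every other gene. In replicate 1, 52 of 59 had at least 1, or 88.1% (interval 77.1 to 95.1), against 88.1% of other genes and 89.9% of those of like span. In replicate 2, 51 did, or 86.4% (75.0 to 94.0), against 88.5% of other genes and 90.2% of those of like span. The ceh windows held 141 summits in replicate 1 and 131 in replicate 2, where other genes of like span would hold 155 and 157. The highest signal in the window, called the best signal here, had a lowest, median and highest value of 3.90, 6.38 and 12.2 in replicate 1 over the members with a summit, and of 4.26, 6.91 and 11.6 in replicate 2. The span-weighted median of other genes was 6.83 in replicate 1 and 7.12 in replicate 2. The highest nuclear signals in the lists were 56.1 and 43, several times those of any ceh gene and of the medians of other genes as well. The 43 of replicate 2 was at unc-62, whose locus is also on the transgene. The replicate lists held 201 and 136 regions with a q value below 0.05, and none of them was the best region of a ceh gene. The share of other genes was not computed at this cut. With the 500 highest regions, a larger set, span-matched genes gave 2.28 and 2.48 genes for a group of this size. A count of 0 at the smaller cut is therefore not a result about the ceh genes.

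**Figure D2:**
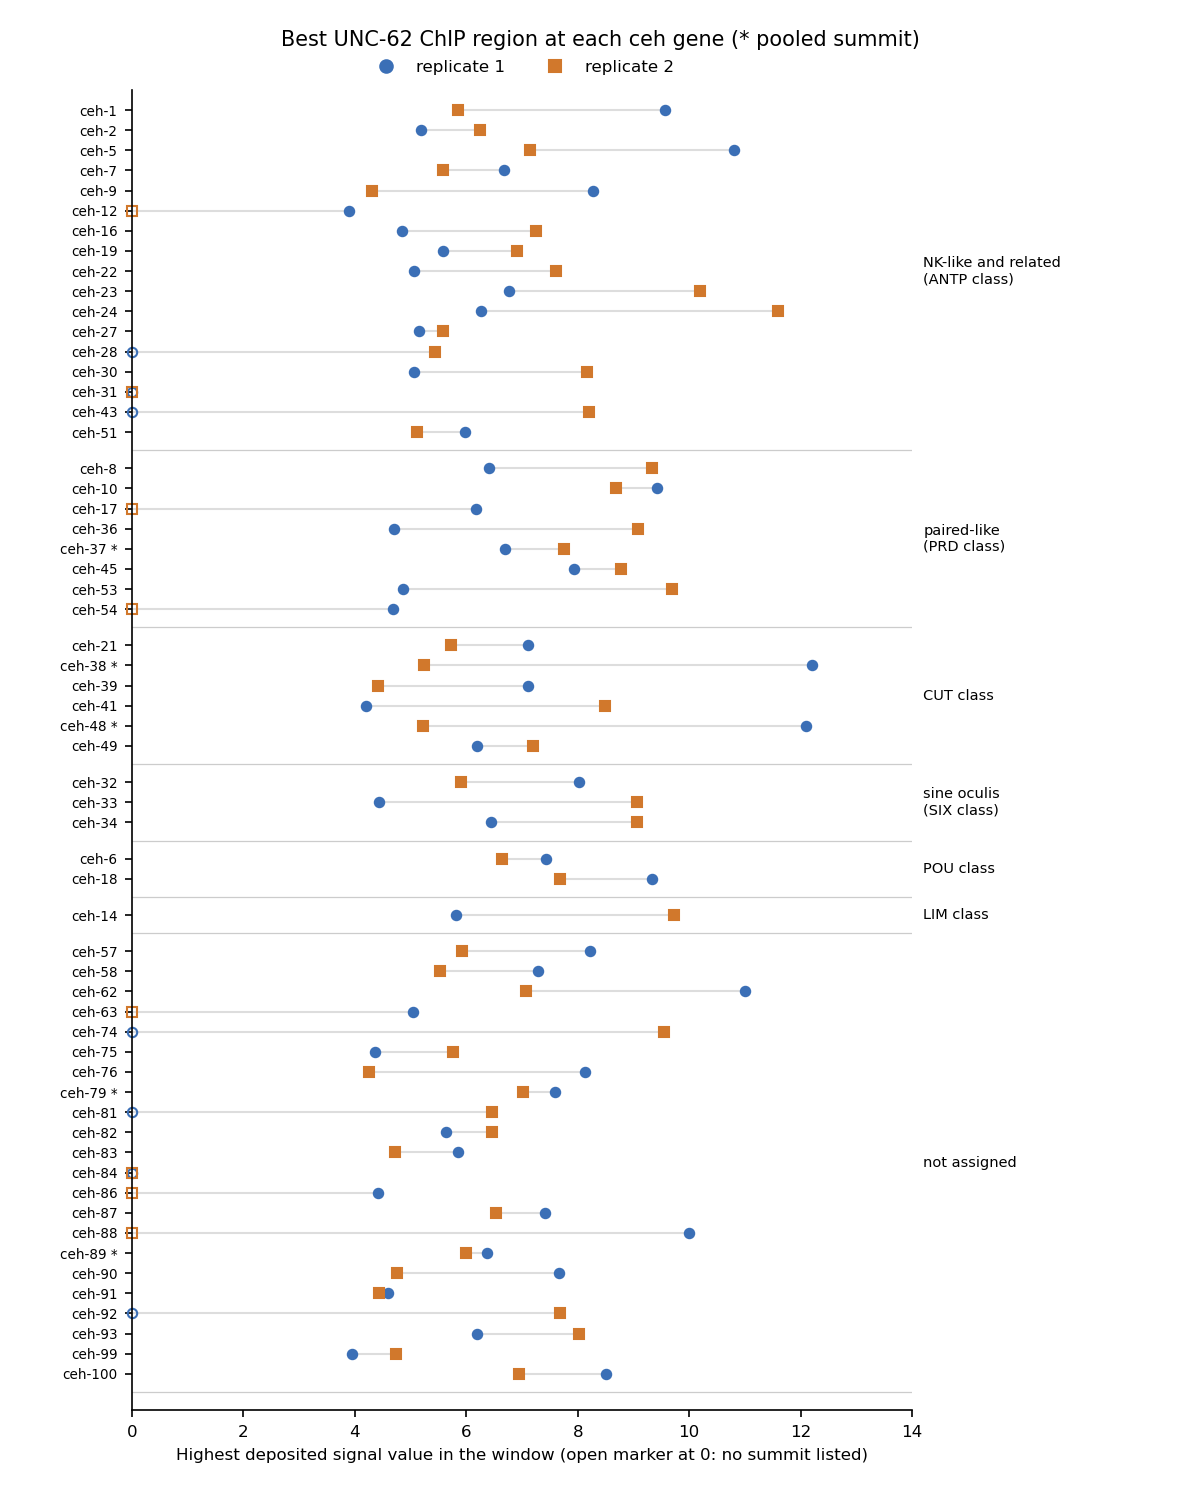
Best deposited signal value in the window of each of the 59 ceh genes (horizontal axis, no unit stated) in replicate 1 (circles) and replicate 2 (squares), grouped by homeodomain class, with open markers at 0 where a list held no summit and stars at the 5 genes with a pooled summit. The highest circles are ceh-38 at 12.2 and ceh-48 at 12.1, the highest square is ceh-24 at 11.6, and the order of genes differs between the replicates.

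The genes with the highest signals differed between the replicates. In replicate 1 the 5 highest best signals were at ceh-38, ceh-48, ceh-62 (11.0, rank 862, 389 bp upstream), ceh-5 (10.8, rank 984, 4775 bp upstream) and ceh-88 (10, rank 1404, 2770 bp upstream). ceh-5 is a Vax-like gene, and its best signal in replicate 2 was 7.14. The best signal of ceh-62 in replicate 2 was 7.07, and ceh-88 had no summit there beside 7 in replicate 1. In replicate 2 the 5 highest were at ceh-24 (11.6, rank 694, 4469 bp upstream), ceh-23 (10.2, rank 1405, in an intron), ceh-14 (9.73, rank 1795, in a coding exon), ceh-53 (9.69, rank 1839, in an intron) and ceh-74 (9.54, rank 1981, 2039 bp upstream). ceh-24 is an NK-like gene of vulval and pharyngeal muscle and had a best signal of 6.26 in replicate 1, and ceh-14, the Lhx3-like LIM gene of several sensory neurons and interneurons, had 5.81. ceh-23, an ANTP class gene of the AIY interneuron, had 6.76 there, ceh-53 had 4.86 and ceh-74 had none. No gene was among the 5 highest of both replicates. Sets of 5 out of 59 genes would often share none by chance, so this is not a result about the ceh genes.

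When each replicate list was cut to its 2155 highest regions, the size of the pooled list, 8 ceh genes had a summit in replicate 1, or 13.6% (interval 6.04 to 25.0), against 15.4% of other genes. These were ceh-1, ceh-5, ceh-10, ceh-18, ceh-38, ceh-48, ceh-62 and ceh-88. In replicate 2 there were 5, or 8.47% (2.81 to 18.7), against 15.5%, namely ceh-14, ceh-23, ceh-24, ceh-53 and ceh-74. The sets shared 0 of the 59 genes, for which the exact interval is 0 to 6.06%. Of the other genes 911, or 4.57%, were in both, which lies within that interval. Over the 46 members with a summit in both lists the Spearman rho of best rank was −0.20, and over 15972 other genes it was 0.20. Both are descriptions across genes that share libraries and neighbouring windows, and rho over 46 genes is imprecise. The higher best signal was in replicate 1 for 24 of the 46 and in replicate 2 for 22.

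The share of ceh genes with a summit was at or below that of span-matched genes at each of 6 list sizes in both replicates. With 1000 regions it was 6.78% against 7.93% in replicate 1 and 1.69% against 8.02% in replicate 2. With 5000 regions it was 27.1% against 33.4% and 25.4% against 33.5%. With 10000 it was 47.5% in both replicates, against 55.1% and 55.4%. Every span-matched share lay within the exact interval of the members, so no difference was detectable for 59 genes. The sizes are nested and the genes are the same, so they do not count as separate observations.

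**Figure D3:**
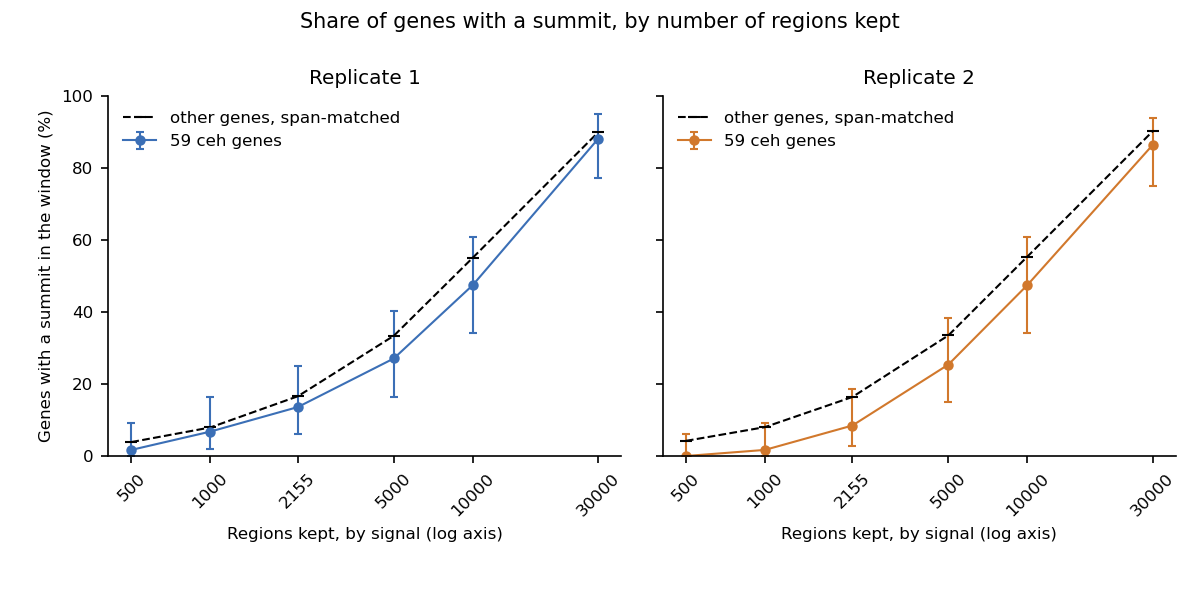
Percent of the 59 ceh genes with a summit in the window (points, with exact 95% binomial intervals) and of other protein-coding genes weighted to the same spans (dashed), against the number of highest regions kept in each replicate (log axis). The points lie below the dashed line at each size, and the dashed line stays within the intervals, as at 5000 regions with 27.1% against 33.4% in replicate 1.

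Grouped by homeodomain class, most genes had summits in the replicate lists and few in the pooled one. Of 17 NK-like and related ANTP class genes 0 had a pooled summit, where genes of like span would give 2.30, and 14 and 15 had a summit in replicates 1 and 2, with median best signals of 5.78 and 6.91. They include ceh-22, the Nkx2-5-like gene of pharyngeal muscle (5.06 and 7.61), ceh-16, the engrailed gene of the seam cells (4.85 and 7.26), ceh-43, the Distal-less gene of the anterior skin (none and 8.20), and ceh-12, the HB9-like motor neuron gene (3.90 and none). The span-weighted medians of other genes were 6.83 in replicate 1 and 7.12 in replicate 2. Of these genes, ceh-22, ceh-16 and ceh-12 were below the median in replicate 1. In replicate 2 ceh-22, ceh-16 and ceh-43 were above it. Of 8 paired-like genes 1 had a pooled summit, ceh-37, against 1.40 for like spans, and median best signals were 6.29 and 8.93. Here ceh-10, a Chx10-like gene of the CAN and AIY neurons, had 9.43 in replicate 1 and 8.69 in replicate 2, at sites that lay 198 bp upstream and 1220 bp inside the gene. ceh-36, the Otx-like gene of the ASE and AWC neurons, had 4.71 and 9.09, and ceh-17, the Phox2-like gene of the ALA and SIA neurons, had 6.18 and none.

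Of the 6 CUT genes 2 had a pooled summit, ceh-38 and ceh-48, against 0.927 for like spans. The remaining CUT genes ranged from 4.20 to 7.11 in replicate 1 and from 4.42 to 8.49 in replicate 2. In replicate 2 ceh-41 (8.49), ceh-49 (7.19) and ceh-21 (5.73) were above ceh-38 (5.25) and ceh-48 (5.23), the reverse of the order in replicate 1, and ceh-39 (4.42) was below them. ceh-21 and ceh-39 share 1 region, 7.11 in replicate 1, since their windows overlap. ceh-39 is an X-linked signal in sex determination. A further CUT gene on the class list, ceh-44, was not found under that symbol in the gene models and is not analysed here. No POU, LIM or sine oculis gene had a pooled summit, where genes of like span would give 0.505, 0.181 and 0.486, so these counts of 0 were near the background. The POU genes are ceh-6 (7.43 and 6.64), which acts in the excretory cell and neurons, and ceh-18 (9.34 and 7.68), which acts in the gonadal sheath. The sine oculis class genes are ceh-32 (8.03 and 5.91), ceh-33 (4.43 and 9.06) and ceh-34 (6.45 and 9.06), of which ceh-34 acts in pharyngeal neurons, and the 9.06 of ceh-33 and ceh-34 is 1 region in both windows. Of 22 genes without an assigned class 2 had a pooled summit, ceh-79 and ceh-89, against 3.5 for like spans, and their median best signals were 6.82 and 6.23. Classes hold few genes, so these counts are not a comparison between classes.

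The 3 longest members without a pooled summit were ceh-100, ceh-18 and ceh-92. ceh-100 spans 21503 bp, the most of any member, and held 6 summits in replicate 1 and 4 in replicate 2, with best signals of 8.51 and 6.95. ceh-18 spans 14431 bp and held 6 in each replicate. ceh-92 spans 7534 bp and held none in replicate 1 and 2 in replicate 2, of which the higher was 7.69. At the other end, ceh-31 and ceh-84 had no summit in either replicate list. That count was not made for other genes, so it is not a result about the ceh genes. ceh-31 is a BarH-like gene beside its relative ceh-30, which protects male CEM neurons from death and had 5.06 and 8.17.

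Summits of replicate 1 with a replicate 2 summit within 200 bp do not depend on the pooled call and were examined next. Such summits lay in the windows of 20 ceh genes, or 33.9% (interval 22.1 to 47.4), against 40.7% of other genes and 42.6% of other genes of like span. They numbered 24, of which 1 lay in the windows of both ceh-57 and ceh-58. After ceh-79, the best lower rank was at ceh-18, where a site in a coding exon had 6.35 in replicate 1 and 7.68 in replicate 2, at ranks 9525 and 5440 and 33 bp apart. Next was ceh-10, where a site 2356 bp upstream had 5.97 and 8.07, 128 bp apart. At ceh-14 a site 3840 bp upstream had 5.56 and 7.49, and at ceh-36 a site 1411 bp upstream had 4.48 and 9.09. None of these 4 sites reached the pooled list. Of the 46 members with summits in both lists, 3 had best summits within 200 bp of each other, namely ceh-2, ceh-51 and ceh-79. The same count was not made for other genes, so it is not a result about the ceh genes. ceh-2 is an Emx-like gene of pharyngeal cells and ceh-51 an NK-like gene of the early mesoderm. Genes of this paragraph were picked with their values in view.

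**Figure D4:**
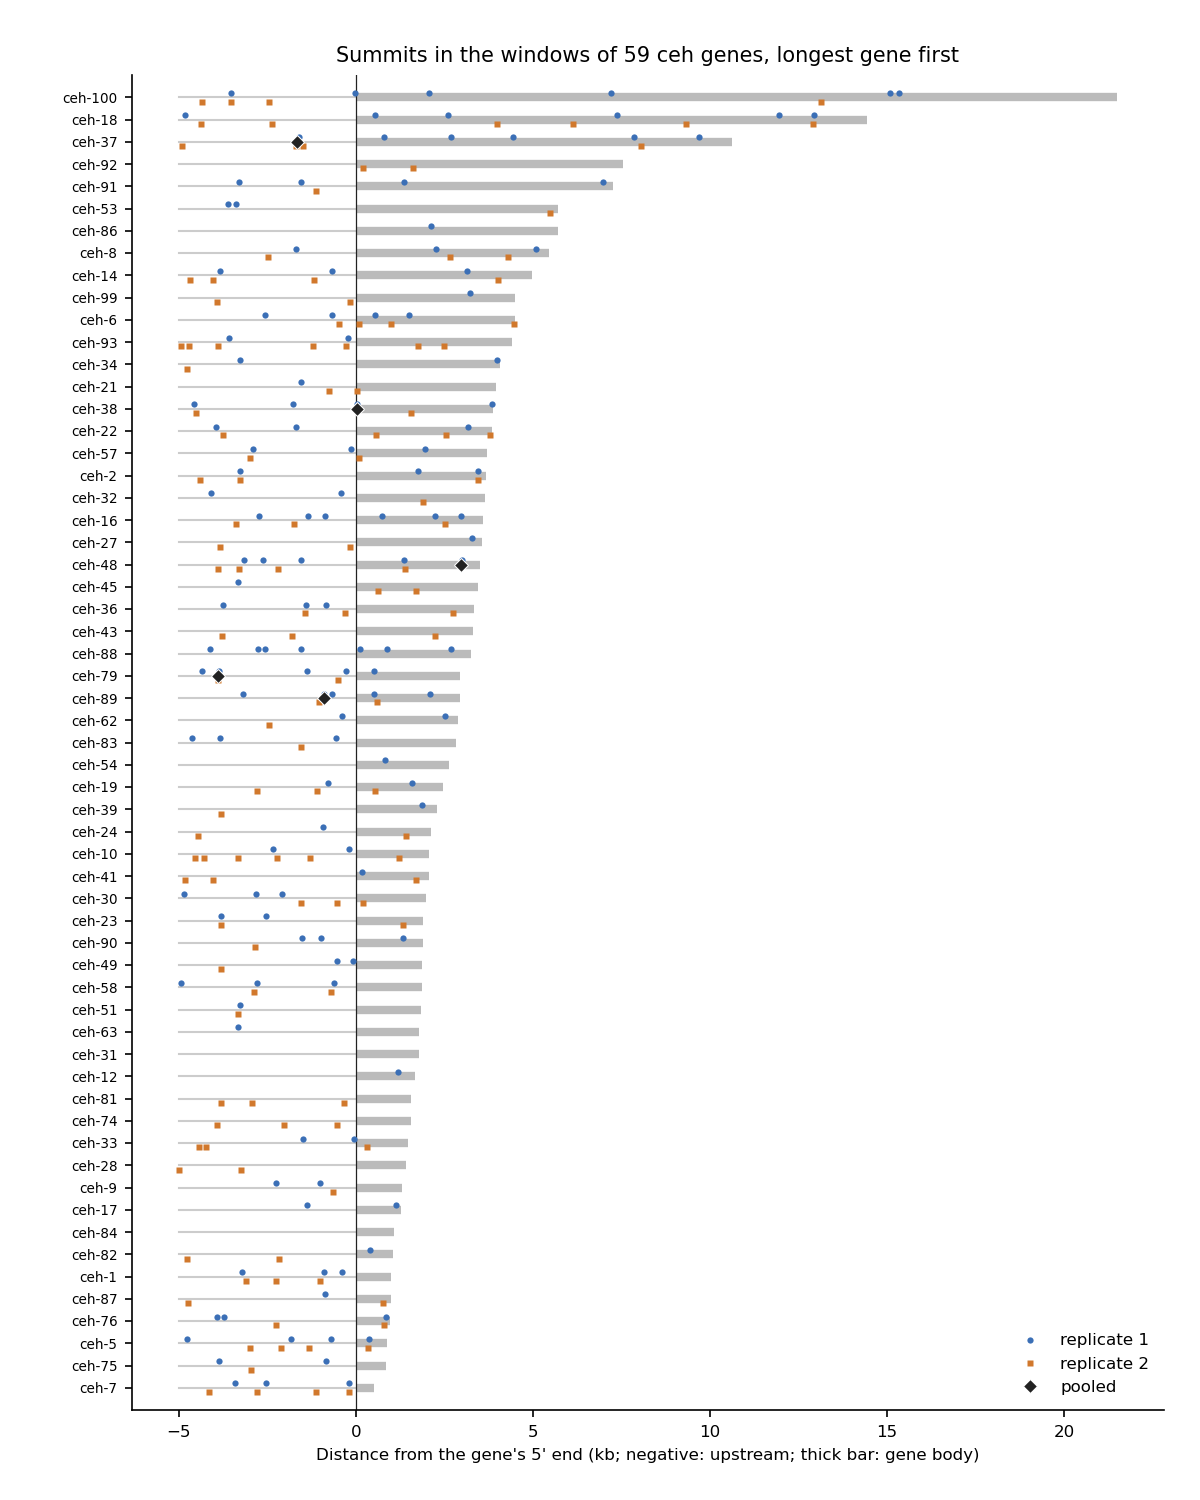
Position of each summit in the windows of the 59 ceh genes, in kb from the 5′ end of the gene (negative is upstream), with replicate 1 as circles, replicate 2 as squares, pooled as diamonds and the gene body as a thick bar, longest gene first. The 141 circles and 131 squares are spread over upstream sequence and gene bodies, and the 5 diamonds lie at ceh-37, ceh-38, ceh-48, ceh-79 and ceh-89.

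By position, 88 of 141 replicate 1 summits and 89 of 131 replicate 2 summits at ceh genes were upstream, or 62.4% and 67.9%, where upstream sequence makes up 59% of the windows. For other genes these shares were 61.8% and 61.0%, with 60.8% of the window upstream. Per kb, gene bodies of ceh genes held 0.259 summits in replicate 1 and 0.205 in replicate 2, and those of other genes 0.295 and 0.305. Upstream sequence held 0.298 and 0.302 per kb at ceh genes and 0.308 in both replicates at other genes. The stretch within 1000 bp upstream held a summit at 24 ceh genes in replicate 1, or 40.7% against 31% of others, and at 13 in replicate 2, or 22.0% against 29.8%, so the replicates differed in direction. Of the summits matched between replicates 19 of 25 were upstream, counted per gene, or 76% against 63.1% at other genes. In gene bodies, 33 replicate 1 summits lay in introns and 12 in coding exons, and 28 and 9 in replicate 2. At other genes 10089 lay in introns and 6927 in coding exons in replicate 1, and 9535 and 8171 in replicate 2. These splits were not tested. The lengths of introns and exons were not taken into account, so the counts do not show a preference for either.

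On the X chromosome lay 16 of the 59 genes, among them ceh-37 and ceh-89. There 2 of 16 had a pooled summit, or 12.5%, against 20.2% of X-linked genes of like span, and on the autosomes 3 of 43, or 6.98%, against 14.8%. For summits matched between replicates the values were 43.8% against 49.4% on X and 30.2% against 41.3% on autosomes. The members' shares were below those of like genes on both. The pooled shares rest on 2 and 3 genes, and the differences were not tested, so none is stated. The windows of 45 members hold part of another protein-coding gene, and 9 members overlap the window of another member, such as the X-linked CUT genes ceh-21, ceh-39 and ceh-41.

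Over the matched summits, the motif shares at ceh genes were 33.3% for TGATNNAT (8 of 24), 20.8% for TAATTA (5 of 24), 12.5% for TGACAG (3 of 24), 8.33% for GAGAGA (2 of 24) and 4.17% for GCGCGA (1 of 24). Among all 6919 matched nuclear summits they were 16.9%, 9.51%, 7.92%, 15% and 2.98%. In the whole windows, without regard to summits, ceh genes held 0.912 matches of TGATNNAT per kb against 0.946 for other genes, 0.6 of TAATTA against 0.524, 0.360 of TGACAG against 0.369 and 0.622 of GAGAGA against 0.722. G or C made up 35.5% and 35.7% of the window sequence. Shares over 24 summits, some in the windows of several genes, are imprecise and were not tested.

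The nearest of the 76 nuclear reproducible regions was far from most genes, the ceh genes and others alike. From the 5′ end of a member the median distance was 444880 bp to a reproducible summit and 24048 bp to a pooled one, against 523877 and 19621 bp for other genes. Only ceh-23 had a reproducible summit within 20000 bp, at 15078 bp with a pooled signal of 36.5, or 1.69% of members against 2.74% of other genes. The next were ceh-48 at 21484 bp (signal 36.2) and ceh-30 at 27409 bp (signal 31.8).

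The homeobox genes left out of the set or named otherwise were placed beside the ceh genes in the same way. Of 6 Hox genes 2 had a pooled summit, against 1.05 for like spans, namely ceh-13 (signal 28.7, with 24.3 in replicate 2 and no replicate 1 match) and lin-39 (2 summits, 21.7 and 16.3). Of 6 TALE genes 3 did, against 1.32 for like spans, with 7 summits at unc-62, whose locus is also on the transgene, and 1 each at ceh-20 (24.6, with 13 and 10.7 in replicates 1 and 2) and ceh-40 (17). Of 30 other homeobox genes without a ceh- symbol 4 did, or fewer than the 5.69 of like spans: lim-6, mec-3, ttx-3 and dve-1, with signals from 16 to 24.6. These groups are small and were listed with results of these data known, so no difference between them and the ceh genes is stated.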

How the data were processed

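The lists are in narrowPeak format. The deposited signal (column 7) and −log10 q value (column 9) are the authors' values per region, on build ce11 per the labels, with aligner and peak caller not given in the sources used here. The labels name a possible control experiment. Per the deposited text lists, the reproducible list was derived from the pooled and both replicate lists. The ce10 lists were not used, since gene models of that build are not used here. The text lists hold no measurement.

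Genes came from Ensembl release 115 on WBcel235, within whose chromosome lengths all nuclear ce11 regions lay, and sequence from RefSeq. Summits were column 2 plus column 10, made 1-based. A gene was counted when a summit lay in its body or up to 5000 bp upstream. Other protein-coding genes were weighted to the members by 20 bins of span. Replicate summits matched within 200 bp, and motifs were sought within 100 bp on both strands. No test was made, as there is 1 group of 2 replicates. Counting steps were tested on simulated data. Depth is unknown. Members and gene lists were chosen with earlier results of these data known.

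Genes were named when they had a pooled summit, were among the 5 highest in a replicate, were among the 3 longest without a pooled summit, or shared a named summit; further names were picked with their values in view. Homeodomain classes were assigned from general knowledge. Alternatives were other upstream windows, stricter lists, region overlap, other span matching and each replicate alone. The software was matplotlib 3.10.9, scipy 1.17.1 and numpy 2.4.6, under Python 3.11.15.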

Additional observations from a re-analysis of the deposited data

How the results depend on the processing

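Of 34 alternative settings, 28 left the value within 1.5 times the count or within its interval and 6 moved it. The ratio was judged by the interval of 5 of 59 genes and the motif shares by intervals on 5 summits. Both intervals are wide, so the tally does not measure robustness. A ratio of 0.203 in place of 0.538 counted as unmoved, as did a TAATTA share of 40% in place of 0. The number of ceh genes with a pooled summit was 3 with 1000 bp upstream (ceh-38, ceh-48 and ceh-89), 2 in gene bodies alone (ceh-38 and ceh-48), 1 among the 1077 pooled regions with the highest signal (ceh-38) and 1 when summits in the windows of several genes were left out (ceh-37). With the 2155 highest regions of each replicate alone it ranged from 5 to 8, and the genes of either replicate included ceh-38 and ceh-48 in replicate 1 and none of the 5 in replicate 2. Among the 5000 highest regions of each replicate, 0 of the 5 pooled summits were found in both, in place of 3. Within 250 bp of the summits TAATTA was at 2 of 5, or 40%, in place of 0, and at 20% of all nuclear pooled summits. The ratio to span-matched genes was below 1 in all 12 alternatives, from 0.203 to 0.818. Most of the 12 reuse the same 5 pooled summits or a part of them, so they are not separate observations. The count of reproducible summits was 0 in each alternative run, the 95 highest regions of each replicate alone included. No paired analysis was possible because the replicates form 1 group and no result comes from a test. With 59 genes and unknown depth, a modest difference from other genes was not detectable.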
